A study of Oryza sativa with 12 samples.

Results

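The genes described here are the secondary wall cellulose synthase genes of rice, *CESA4*, *CESA7* and *CESA9*, with *BC1* and 5 transcription factor genes, *SWN1*, *SWN2*, *MYB46*, *MYB58/63* and *MYB103*. They were chosen by locus identifier, 9 of the 53380 loci that have a row of their own in the expression values. All 9 were found, and all 9 reached 1 FPKM (fragments per kilobase of transcript, scaled to sequencing depth and so corrected for transcript length) in at least 1 group. The peduncle, the uppermost internode that carries the panicle, was collected from field-grown plants of the *indica* cultivars Swarna, an elite cultivar, and Pokkali, a tall salt-tolerant landrace. Elongating peduncles (EP) were taken shortly before heading, with the panicle still inside the flag leaf sheath, and non-elongating peduncles (NP) shortly after heading. Neither cultivar carried a transgene or received a treatment in the labels, and the age of the plants and the number of plants in a library are not given there. Each of the 4 groups had 3 libraries, whose values were combined by the authors into 1 FPKM per gene and group. No spread between libraries, interval or test can therefore be given, and each difference below is a ratio of 2 group values without a replicate check. Only ratios of 2-fold or more are called differences.

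Cellulose is made at the plasma membrane by complexes of CESA proteins. The primary wall of a growing cell and the secondary wall that is laid down inside it once growth slows use different sets of CESA proteins. In rice, CESA4, CESA7 and CESA9 serve the secondary wall of sclerenchyma fibres and xylem, and loss of any of them gives a weak stem known as brittle culm. BC1 is a COBRA-like protein anchored to the cell surface, whose loss also makes the culm brittle. SWN1 and SWN2 are NAC transcription factors regarded as switches of secondary wall formation, and MYB46, MYB58/63 and MYB103 are MYB factors that act with or below them. *MYB103* and *MYB58/63* have been reported to activate promoters of secondary wall *CESA* genes in rice.

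By the 2-fold minimum, 7 of the 9 genes were lower after heading in each cultivar, and the others were within 2-fold. Of all genes compared, 25.4% were lower by as much in Swarna and 14.8% in Pokkali. By sign alone, all 9 genes had the lower value after heading in Pokkali, and 8 of the 9 in Swarna. The median log2 ratio of NP to EP of all genes was 0.05 in Pokkali and 0.03 in Swarna. Either sign was thus common, and a sign alone says little. The synthase genes and *BC1* were 9.23- to 13.0-fold lower after heading in Swarna and 1.91- to 5.06-fold lower in Pokkali. Pokkali also had the higher level of each of these 4 genes at both stages. Of the 9 genes, *CESA4*, *CESA7*, *BC1*, *SWN1*, *SWN2* and *MYB103* stand in lists that the study drew from these libraries for differing between stages, and its text also describes *CESA9*, so no direction here is taken as independent evidence.

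*CESA4* (LOC_Os01g54620, assembled span on chromosome 1 from 31422946 to 31428688) stood at 54.9 FPKM before and 5.94 after heading in Swarna, and at 264 before and 138 after heading in Pokkali. It was the highest of the 9 genes in all groups except Swarna EP, where *CESA7* was higher. After heading it was 9.23-fold lower in Swarna (log2 ratio of NP to EP −3.10, on FPKM plus 0.5) and 1.91-fold lower in Pokkali (log2 ratio −0.93), which is under the 2-fold minimum. Between the NP groups *CESA4* was 23.3-fold lower in Swarna than in Pokkali, and 0.350% of all genes compared had a lower log2 ratio there.

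*CESA7* (LOC_Os10g32980, chromosome 10 from 17261952 to 17266613) dropped from 68.1 FPKM in EP to 5.25 in NP of Swarna, and from 169.5 to 49.8 FPKM in Pokkali. Its log2 ratio of NP to EP was −3.58 in Swarna and −1.76 in Pokkali. For *CESA9* (LOC_Os09g25490, chromosome 9 from 15281268 to 15292580) the EP and NP levels were 49.6 and 4.27 FPKM for Swarna and 129 and 25.5 FPKM for Pokkali. Its log2 ratios were −3.39 in Swarna and −2.32 in Pokkali. The order of the 3 synthase genes by their stage ratio thus differed between cultivars, *CESA4* having the smallest difference in both and *CESA7* or *CESA9* the largest.

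*BC1* (LOC_Os03g30250, chromosome 3 from 17260196 to 17266546) was at 20.1 FPKM in the elongating and 1.72 in the non-elongating peduncles of Swarna, with 58.9 and 12.5 FPKM in those of Pokkali. Its log2 ratio of NP to EP was −3.22 in Swarna and −2.19 in Pokkali, between those of the synthase genes in Swarna and close to that of *CESA9* in Pokkali. Set against the summed FPKM of *CESA4*, *CESA7* and *CESA9*, *BC1* stood at 11.7% before and 11.1% after heading in Swarna, and at 10.5% and 5.85% in Pokkali. It therefore kept a similar proportion to the synthase genes in 3 groups, and a lower one in Pokkali NP, where *CESA4* remained high.

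**Figure D1:**
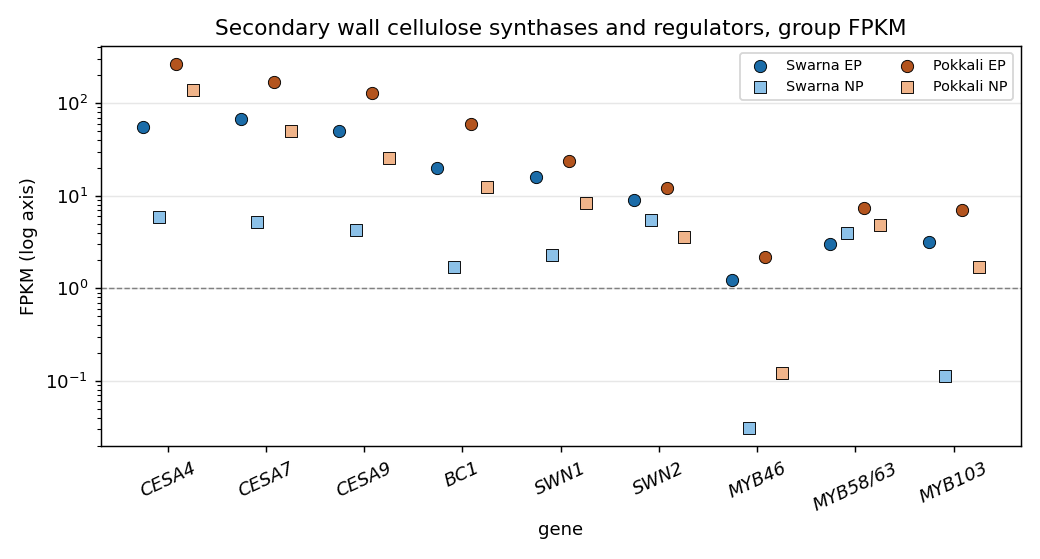
FPKM (log axis) of each of the 9 genes in the 4 groups, 1 point per group and combined from 3 libraries, with a dashed line at 1 FPKM. The synthase genes and *BC1* have their lowest point in Swarna NP (1.72 to 5.94 FPKM) and their highest in Pokkali EP (58.9 to 264 FPKM), while the 4 points of *MYB58/63* lie within 3.03 to 7.45 FPKM.

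The regulators were less abundant than the synthase genes before heading and were not uniform in their stage ratio. *SWN1* (LOC_Os06g04090, chromosome 6 from 1699371 to 1702859) reached 16.0 FPKM in EP against 2.27 in NP of Swarna, and 23.6 against 8.30 FPKM in Pokkali. It was the most abundant of the 5 regulators in both EP groups and was 7.06-fold lower after heading in Swarna and 2.84-fold lower in Pokkali. *SWN2* (LOC_Os08g02300, chromosome 8 from 856109 to 858607), the related NAC gene, was at 9.07 FPKM before and 5.48 after heading in Swarna, with 12.3 and 3.57 FPKM for Pokkali. The cultivars stood in the reverse order, 1.66-fold lower after heading in Swarna and 3.44-fold lower in Pokkali. *SWN1* exceeded *SWN2* in Swarna EP and in both Pokkali groups, whereas in Swarna NP *SWN2* was the higher of the pair.

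*MYB103* (LOC_Os08g05520, chromosome 8 from 2948522 to 2951372) went from 3.17 FPKM in EP to 0.114 in NP of Swarna and from 7.07 to 1.69 FPKM in Pokkali. Its log2 ratio of NP to EP was −2.58 in Swarna and −1.79 in Pokkali. *MYB46* (LOC_Os12g33070, chromosome 12 from 19991426 to 19994401) was the least abundant of the 9 genes in all 4 groups, with 1.23 FPKM before and 0.0308 after heading in Swarna and 2.19 and 0.121 FPKM in Pokkali. Both genes lay below 1 FPKM in Swarna NP, and *MYB46* also in Pokkali NP. At such levels the size of a ratio depends on the constant added, and the log2 ratios of *MYB46*, −1.71 in Swarna and −2.11 in Pokkali, are smaller than its unadjusted ratios of 40.1- and 18.1-fold.

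*MYB58/63* (LOC_Os04g50770, chromosome 4 from 30028734 to 30030685) stayed within 2-fold between the stages of each cultivar. It was at 3.03 FPKM in EP and 3.92 in NP of Swarna, with 7.45 and 4.80 FPKM in Pokkali. It was the single gene of the 9 with a higher value after heading, in Swarna alone, at a log2 ratio of 0.33 that turned to −0.45 when the columns were scaled to equal sums. In Pokkali its log2 ratio was −0.59. Both deposited ratios lie within 2-fold, so no stage difference was counted for this gene in either cultivar.

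The place of the synthase genes among all 19126 genes compared does not depend on how the columns are scaled. *CESA4*, *CESA7* and *CESA9* stood above 94.5 to 96.3% of these genes in elongating peduncles of Swarna and above 97.5 to 99.1% in those of Pokkali. After heading they stood above 44.7 to 51.4% in Swarna, the middle of the range, and above 81.8 to 97.3% in Pokkali. *BC1* went from above 82.9% to above 29.0% of the genes in Swarna, and from 93.4% to 66.1% in Pokkali. Among the regulators in Swarna, *SWN1* went from 78.0% to 33.6% and *SWN2* from 62.3% to 49.7%, while *MYB58/63* moved up from 33.3% to 43.3%.

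Counted over the 9 genes, 7 were at least 2-fold lower after heading in Swarna, where 25.4% of the 19126 genes compared were lower by as much. None of the 9 was 2-fold higher, where 26.6% of all genes were. In Pokkali 7 were also at least 2-fold lower, against 14.8% of all genes, and none was higher, against 15.9%. The genes within 2-fold were *SWN2* and *MYB58/63* in Swarna and *CESA4* and *MYB58/63* in Pokkali. The median log2 ratio of NP to EP was −2.58 in Swarna and −1.76 in Pokkali, against 0.03 and 0.05 for all genes. At least 2-fold lower in both cultivars were 6 of the 9, *CESA7*, *CESA9*, *BC1*, *SWN1*, *MYB46* and *MYB103*, where 11% of all genes were. Since whole peduncles were sequenced, fewer fibre and xylem cells and less RNA per such cell cannot be told apart.

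**Figure D2:**
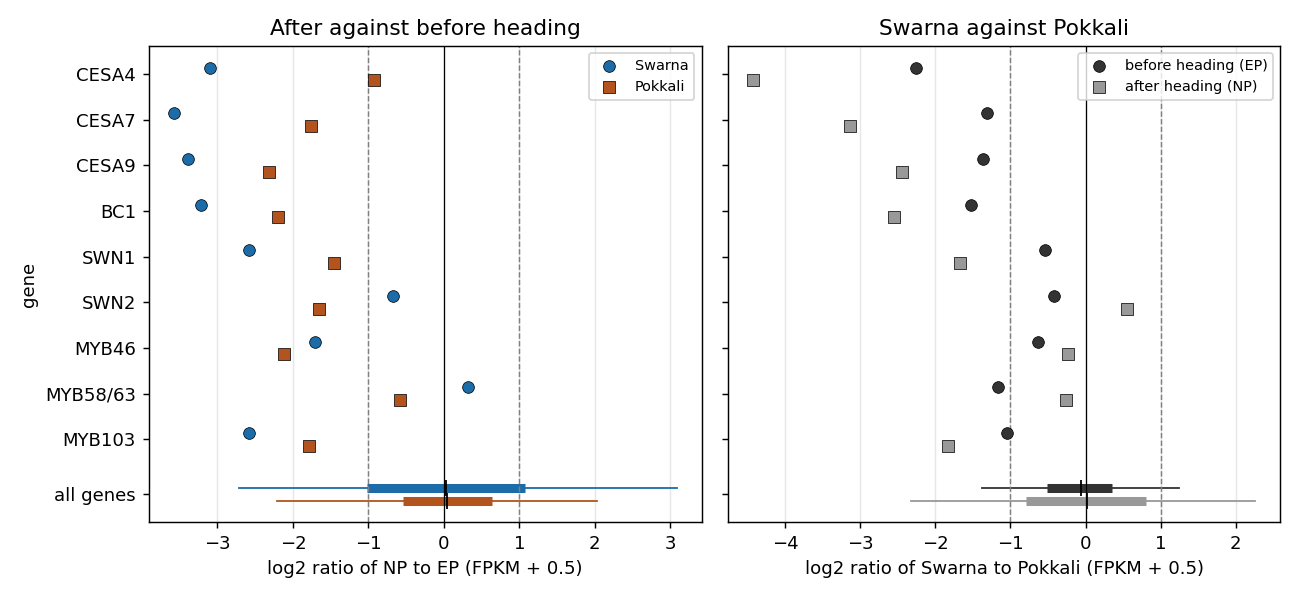
Log2 ratios of the 9 genes, of NP to EP in each cultivar (left) and of Swarna to Pokkali at each stage (right), on FPKM plus 0.5, with dashed lines at 2-fold. The bottom lines give all 19126 genes as the median (tick), the middle range from percentile 25 to 75 (thick) and the range from percentile 5 to 95 (thin); *CESA4* lies at −3.10 in Swarna and −0.93 in Pokkali on the left, and at −4.43 between the NP groups on the right.

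Swarna and Pokkali differed in these genes before heading as well. Per the paper, peduncles were on average longer in Pokkali at both stages, and Pokkali took more days from sowing to heading. In the ratios between cultivars, cultivar cannot be told apart from peduncle length or plant age at sampling. In EP, 6 of the 9 were at least 2-fold lower in Swarna than in Pokkali, where 9.92% of all genes were. None was higher by 2-fold, where 7.49% of all genes were. These 6 were *CESA4* (4.81-fold), *BC1* (2.93-fold), *CESA9* (2.60-fold), *CESA7* (2.49-fold), *MYB58/63* (2.46-fold) and *MYB103* (2.23-fold). *SWN1*, *SWN2* and *MYB46* had log2 ratios of Swarna to Pokkali of −0.54, −0.42 and −0.63, so the ratios of the NAC switch genes were smaller than those of the cellulose synthase genes. With columns scaled to equal sums, which moves the median of all genes by 0.30 in this comparison, 3 of the 9 stayed past 2-fold, *CESA4*, *CESA9* and *BC1*.

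After heading, 6 of the 9 were again at least 2-fold lower in Swarna, against 20.3% of all genes, and none was 2-fold higher, against 20.4%. The log2 ratios of Swarna to Pokkali were −4.43 for *CESA4*, −3.13 for *CESA7*, −2.55 for *BC1*, −2.44 for *CESA9*, −1.84 for *MYB103* and −1.67 for *SWN1*. For *MYB103*, with 0.114 FPKM in Swarna NP, the ratio depends on the constant and was −3.07 with a constant of 0.1. *SWN2* had a log2 ratio of 0.55, the single positive value among the 9. *MYB58/63* was at −0.26, and *MYB46*, below 1 FPKM in both NP groups, was at −0.23 (3.94-fold lower without the constant). The synthase genes and *BC1* thus lay 5.96- to 23.3-fold lower in Swarna NP than in Pokkali NP, in a group where *SWN2* and *MYB58/63* were within 2-fold of Pokkali.

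The stage ratio was compared between the cultivars by taking the log2 ratio of NP to EP in Swarna minus that in Pokkali. It was −2.17 for *CESA4*, −1.82 for *CESA7*, −1.13 for *SWN1*, −1.08 for *CESA9* and −1.02 for *BC1*, a lower ratio in Swarna for these 5 genes. At −1 or below lay 19.2% of all genes. *MYB103* was at −0.79, and *SWN2*, *MYB58/63* and *MYB46* had positive values of 0.97, 0.91 and 0.41. Over the 9 genes the median was −1.02, against 0.07 for all genes. These differences could not be tested, and those of *BC1*, *CESA9* and *SWN1* came under 2-fold when 1 was added to FPKM in place of 0.5 (−0.81, −0.97 and −0.98).

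The balance among the secondary wall synthase genes was not the same in every group, though little of the difference between stages passed 2-fold. Since FPKM is corrected for length, the levels of the 3 genes can be set against each other, with 1 limit. The assembled span of *CESA9* also holds LOC_Os09g25500, at 13.1% of the *CESA9* row in Pokkali EP and 265% in Swarna NP. How reads were divided there is not known. That limit holds for the *CESA9* levels and ratios above as well as for the shares and ratios below. *CESA4* made up 31.8% of their summed FPKM before and 38.4% after heading in Swarna, and 47.0% and 64.8% in Pokkali. Its share was higher after heading in both cultivars and higher in Pokkali at both stages. *CESA9* took 28.7% and 27.6% in Swarna and 22.9% and 11.9% in Pokkali, and *CESA7* took 39.5% and 33.9% in Swarna and 30.1% and 23.3% in Pokkali. The ratio of *CESA4* to *CESA9* was 1.11 before and 1.39 after heading in Swarna, and 2.05 and 5.43 in Pokkali. Between stages this ratio passed 2-fold in Pokkali alone, and the share of each gene stayed within 2-fold in both cultivars.

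**Figure D3:**
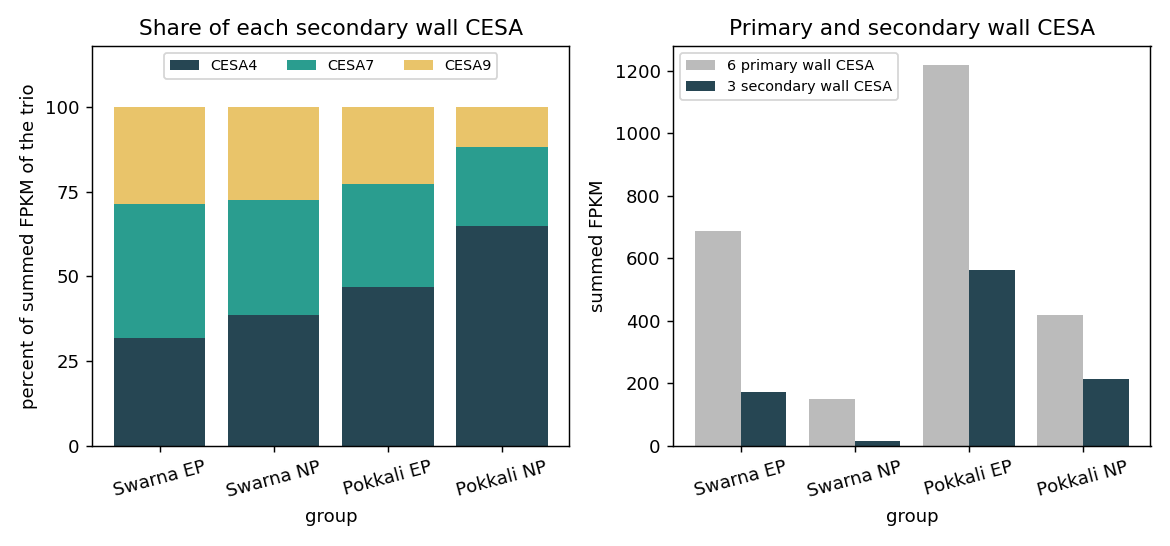
Left, percent of the summed FPKM of *CESA4*, *CESA7* and *CESA9* held by each gene in each group. Right, summed FPKM of the 6 primary wall *CESA* genes and of the 3 secondary wall genes; *CESA4* holds 31.8% of the trio in Swarna EP and 64.8% in Pokkali NP, and the secondary wall sum is 15.5 FPKM in Swarna NP against 213 in Pokkali NP.

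To see whether the secondary wall genes behaved like cellulose synthase genes in general, they were set beside the primary wall genes *CESA1*, *CESA2*, *CESA3*, *CESA5*, *CESA6* and *CESA8*. The secondary wall sum of Swarna was 172 FPKM before and 15.5 after heading, 11.2-fold lower, while its primary wall sum was 688 and 150.2 FPKM, 4.58-fold lower. In Pokkali the secondary wall sum was 562 FPKM before and 213 after heading, 2.63-fold lower, and the primary wall sum 1219 and 419 FPKM, 2.91-fold lower. The secondary wall genes accordingly held 20.0% of the FPKM of all 9 *CESA* genes before and 9.33% after heading in Swarna, but 31.6% and 33.8% in Pokkali. In Swarna all 6 primary wall genes were at least 2-fold lower after heading, where 25.4% of all genes were. Their log2 ratios ran from −2.84 to −1.64, so that each of them had a smaller difference than *CESA4*, *CESA7* and *CESA9*. In Pokkali 5 of the 6 were, against 14.8% of all genes. The ratios there ran from −2.52 (*CESA5*) to −0.40 (*CESA2*), a range that takes in those of the secondary wall genes. Before heading, 1 of the 6 primary wall genes was at least 2-fold lower in Swarna than in Pokkali, against 9.92% of all genes. After heading 4 of the 6 were, against 20.3%, where *CESA4*, *CESA7* and *CESA9* were lower at both stages. The stage ratio in Swarna minus that in Pokkali had a median of −0.87 for the primary wall genes. It was at −1 or below for 3 of the 6, *CESA2* (−1.63), *CESA6* (−1.57) and *CESA3* (−1.29), against 19.2% of all genes. A lower ratio in Swarna was thus shared by these genes. *CESA8* was at −0.45, and *CESA1* (0.07) and *CESA5* (0.59) had positive values.

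The summed FPKM of the 5 regulators was 32.5 before and 11.8 after heading in Swarna, 2.75-fold lower, and 52.6 and 18.5 in Pokkali, 2.84-fold lower. These sums hold genes whose stage ratios were not alike in the 2 cultivars. Swarna minus Pokkali was past 2-fold for *SWN1* alone (−1.13). It was −0.79 for *MYB103* and positive for *SWN2* (0.97), *MYB58/63* (0.91) and *MYB46* (0.41), all under 2-fold as deposited. The value of *SWN2* passed 2-fold with columns scaled by the median ratio (1.02) and with a constant of 0.1 (1.03). With columns scaled to equal sums *SWN2* came to 0.39 and *MYB58/63* to 0.38. Under that scaling the regulator sum was 5.08-fold lower after heading in Swarna and 3.41-fold lower in Pokkali. *SWN1* and *SWN2* made up most of the regulator sum in each group. Transcript levels say nothing of protein amounts or activity, which were not measured here.

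A further 15 loci with a part in secondary wall formation had been listed by identifier from general knowledge, in sets for cellulose deposition (6 loci), xylan synthesis (5) and regulation (4). After heading, 10 of the 15 were at least 2-fold lower in Swarna, against 25.4% of all genes, with a median log2 ratio of −1.75. None was higher, against 26.6%. In Pokkali 11 were lower, against 14.8% of all genes, and 1 was higher, against 15.9%, with a median of −1.60. At least 2-fold lower in both cultivars were 9 of the 15, against 11% of all genes. By set, 4 of the 6 cellulose deposition loci were lower in each cultivar, while 3 of the 5 xylan loci were lower in Swarna and 4 in Pokkali. The stage ratio in Swarna minus that in Pokkali ranged from −2.02 to 1.51 over these loci, with a median of −0.07. At −1 or below lay 4 of the 15, against 19.2% of all genes, and at 1 or above 3, against 21.9%. Neither count is read as a result about these loci.

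Among the 4 regulatory loci, the MYB gene LOC_Os05g04820 had 23.7 FPKM before and 1.56 after heading in Swarna and 42.3 and 3.32 FPKM in Pokkali, log2 ratios of −3.56 and −3.49. Both ratios were thus alike in the 2 cultivars. The MYB gene LOC_Os01g18240 had log2 ratios of −1.10 and −1.73. The NAC gene LOC_Os05g48850 followed the synthase genes, with 9.26 and 0.680 FPKM before and after heading in Swarna, and 31.3 and 15.1 in Pokkali. The NAC gene LOC_Os08g01330 went the other way in Pokkali, from 3.19 FPKM in EP to 12.2 in NP, and had 1.41 and 1.65 FPKM in Swarna.

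**Figure D4:**
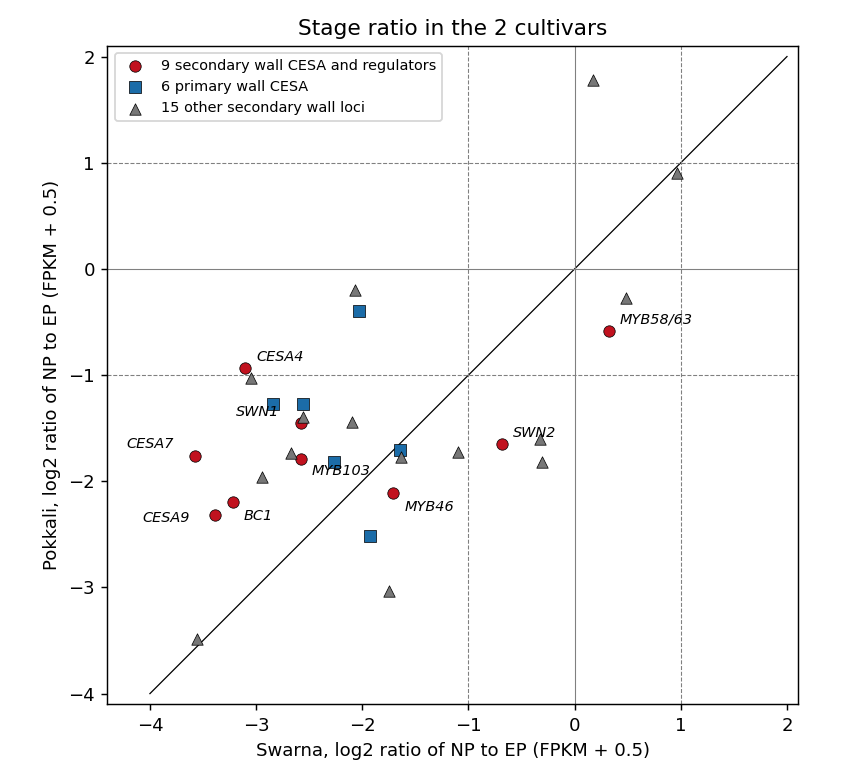
Log2 ratio of NP to EP in Swarna (horizontal) against Pokkali (vertical) on FPKM plus 0.5, for the 9 genes (circles), the 6 primary wall *CESA* genes (squares) and the 15 other loci (triangles), with the line of equal ratios and dashed lines at 2-fold. Points above the diagonal have the lower ratio in Swarna, as *CESA4* (−3.10 and −0.93) has, and *SWN2* (−0.68 and −1.65) and *MYB58/63* (0.33 and −0.59) lie below it.

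The profile over the 4 groups was used to find the loci most like the secondary wall synthases. Each profile was centred on its own mean log2 level, and its distance from the mean profile of *CESA4*, *CESA7* and *CESA9* was taken as the root mean square over the 4 groups, among 10288 other loci with at least 10 FPKM in at least 1 group. The 3 genes that define the profile were themselves at 0.16 (*CESA7*, 1 locus closer), 0.37 (*CESA9*, 45 closer) and 0.51 (*CESA4*, 108 closer). *BC1* was at a distance of 0.30, with 22 loci closer. The NAC gene LOC_Os05g48850 was at 0.28, with 19 closer. Among the 5 regulators, *MYB103* was nearest, at 0.59 with 168 loci closer, followed by *SWN1* at 0.75 with 298 closer. *MYB46*, *SWN2* and *MYB58/63* were at 1.19, 1.59 and 1.62. Of the *CESA* genes of the primary wall, *CESA3* was nearest, at 0.49 with 95 loci closer, nearer to the mean profile than *CESA4*.

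The 10 closest loci had distances of 0.15 to 0.25, and all of their log2 ratios of NP to EP were between −3.59 and −2.70 in Swarna and between −1.96 and −1.07 in Pokkali. The closest, LOC_Os02g54030, had 17.9 FPKM before and 1.92 after heading in Swarna and 66.3 and 20.9 FPKM in Pokkali. Neither the expression values nor the reference of gene names pairs it with a name. These distances rest on 4 group values and are descriptions of shape. The loci were picked on the same values, so ratios near those of the synthase genes follow from the choice.

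Several of the 9 loci were not single rows. *CESA4* had 3 rows, *CESA7* and *SWN1* had 2, and the row of highest mean was taken. The others were low, with at most 0.836 FPKM for *CESA4*, 1.68 for *CESA7* and 0.283 for *SWN1*. The second row of *CESA7* stood at 0.991 to 1.46% of its main row in the 4 groups, so it followed the same pattern. The assembled spans of *CESA9* and *BC1* each held a second locus. LOC_Os09g25500, in the span of *CESA9*, had 11.2 FPKM before and 11.3 after heading in Swarna and 16.8 and 8.17 in Pokkali, a pattern unlike that of *CESA9*. In Swarna NP it was above *CESA9*. LOC_Os03g30260, in the span of *BC1*, had at most 0.555 FPKM. RefSeq places a *BC1*-like gene, *BC1L2*, directly beside *BC1*, and how reads were divided within such spans is not given in the sources used here.

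The columns differed in their sums over the loci used, from 330514 FPKM in Swarna EP to 609663 in Swarna NP, with 419002 and 502800 in Pokkali EP and NP. Dividing by these sums moves the median log2 ratio of NP to EP of all genes by −0.82 in Swarna and by −0.19 in Pokkali, and the ratios above are read on the FPKM as deposited. Under that scaling *SWN2* came to −1.50 in Swarna and *CESA4* to −1.19 in Pokkali, both past 2-fold. As a check on tissue, 2 homeobox loci listed for stems, LOC_Os03g51690 and LOC_Os07g03770, were present in all groups. Their sum was 67.8 FPKM before and 257 after heading in Swarna and 88.7 and 154 in Pokkali, and its part in the results was not tested. In Swarna both loci were at least 2-fold higher after heading (log2 ratios 1.78 and 2.01). In Pokkali LOC_Os07g03770 was (1.18), and LOC_Os03g51690 was within 2-fold (0.28). The 4 loci listed for leaf summed to 116 FPKM before and 95.9 after heading in Swarna and to 567 and 1443 FPKM in Pokkali. Of the 4, 3 or 4 reached 1 FPKM in each group and none was at 0. The leaf sum was thus highest in the group with the highest *CESA4* share, and its part was not tested either. In Swarna the listed leaf loci were not alike, LOC_Os12g17600 being 5.38-fold lower after heading and LOC_Os09g17740 1.02-fold lower. For 1 of these 4, LOC_Os01g41710, a second row shared with another locus was not counted. That row held 2516 FPKM before and 2812 after heading in Swarna and 3087 and 4112 in Pokkali. It was larger than the leaf sum in each group, so the direction of the leaf sum in Swarna depends on leaving it out.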

How the data were processed

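RNA of rice peduncles was sequenced from 12 libraries, 3 for each cultivar and stage. Per the paper and the submitters' processing notes, reads passing the NGSQC Toolkit were mapped by the authors using HISAT2 (2.1.0) on release 7 of the Rice Genome Annotation Project. Transcripts were assembled using StringTie (1.3.3b) and joined by Cuffmerge, and Cuffdiff was used for differential expression. The deposited FPKM values (the paper names Cufflinks for FPKM, and which program combined the authors' libraries is not given in the sources used here) hold 1 value per assembled gene and group. They hold no counts, so the depth behind a value is unknown from them, and low values are the least certain. Whole reads were not sought in values that combine 3 libraries.

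Of 73781 rows, 62442 name a single locus. For a locus with several rows, the row of highest mean was used. Genes with at least 1 FPKM in at least 1 group (19126) were compared by log2 of FPKM plus 0.5, and 2-fold was the minimum for a difference. Spans are assembled loci counted from 1. The members and lists were chosen with earlier results of these data known. The genes named are the 9 members, 6 primary wall *CESA* genes, a list of 15 loci and the loci nearest in profile (10 were taken). Names come from the study or its lists, and RefSeq (ASM3414082v1) holds the names of 4 of the 9 on the chromosome of the locus. Other *BC1* homologs could not be joined to the loci and are not analysed here. The effect of spread between libraries on the ratios was not tested, at low FPKM values or elsewhere. Python 3.11.15, numpy 2.4.6, pandas 2.3.3 and matplotlib 3.10.9 were used.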

Additional observations from a re-analysis of the deposited data

Results flagged for a closer look

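*MYB58/63* had stage ratios of opposite sign on the deposited scale, with a log2 ratio of NP to EP of 0.33 in Swarna (3.92 against 3.03 FPKM) and −0.59 in Pokkali (4.80 against 7.45 FPKM). With columns scaled to equal sums the Swarna ratio was −0.45, the same sign as in Pokkali. Swarna minus Pokkali comes to 0.91. The difference was not tested, since each group is a single combined value, and both ratios are within 2-fold.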

How the results depend on the processing

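Constants of 0.1 and 1, the sum of all rows of a locus, columns scaled to equal sums or by the median ratio, no filter and a minimum of 10 FPKM were tried. A filter cannot move the ratio of a gene that passes it, nor can summed rows for a gene with 1 row. Of the 195 log2 ratios and differences of single genes that a setting could move, 180 kept their direction and their side of 2-fold, 8 came under it, 6 passed it and 1 turned. That 1 is *MYB58/63* in Swarna, at −0.45 with equal sums. Genes called between the EP groups went from 6 to 3 with equal sums. The median difference of the stage ratios, −1.02, was −0.81 with a constant of 1 and −0.97 with median scaling. With a constant of 0.1, *MYB103* had a difference between the stage ratios of −1.93 in place of −0.79, and the order of the genes changed, with *MYB103* at −3.94 below *CESA7* (−3.67) in Swarna and *MYB46* at −3.37 below *CESA9* (−2.33) in Pokkali. The minimum of 10 FPKM leaves out *MYB46*, *MYB58/63* and *MYB103*. Shares within a column can move only with summed rows, and that of *CESA4* in the trio then moved by less than 1 percentage point. No paired analysis was possible because the deposited columns hold 1 combined value per group, and for the same reason no library could be left out.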
